A study of Mus musculus with 6 samples.

Results

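The SLAM family receptors and their adaptor SAP (encoded by Sh2d1a) were examined in CD11c+ and CD11c- T cells sorted from mouse blood. Of the 9 genes listed, namely Slamf1, Slamf6, Slamf7, Slamf9, Cd244a, Cd48, Cd84, Ly9 and Sh2d1a, 7 were named as the single gene of a probe set on the array. Together they had 13 of the 45141 probe sets and were 7 of the 17097 genes measured. Slamf7 and Cd48 had no probe set that names them here and were not analysed here. The activated effector cells came from the blood of 3 female C57BL/6 mice, A, C and D, aged 6 to 8 weeks. According to the sample labels the females, and so both fractions, were given Depo-Provera (3 mg), a long-acting progestin, 5 days before death (the study's methods give another day). From each mouse a CD3+ CD62L- CD44high CD11c+ sample and a CD3+ CD62L- CD44high CD11c- sample of 300 cells were collected, and the RNA of each was amplified and hybridised to its own array. The amplified RNA of 300 sorted cells is a small model of each fraction, and 3 arrays per fraction limit the precision of every value.

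SLAM receptors are immunoglobulin-like surface proteins of blood cells. Most of them bind a second copy of themselves on a neighbouring cell, while the receptor 2B4 (Cd244a) binds CD48. Several of the receptors have tails with tyrosine motifs that recruit SAP, a small SH2 domain protein that brings in the kinase Fyn. Without SAP, phosphatases take its place on the same motifs. SAP is needed for the development of invariant natural killer T (iNKT) cells and for the help that follicular T cells give to B cells, and its loss causes X-linked lymphoproliferative disease in humans.

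Within the family the differences went both ways. Cd244a and Slamf9 passed as higher in CD11c+ cells. Slamf1 passed as lower at 1 of its 3 probe sets, and so did Slamf6 at 1 of its 3. Cd84, Ly9 and Sh2d1a did not pass the test. Counted by gene, with each gene represented by its brightest probe set, 2 of 7 were higher and 1 of 7 was lower at an adjusted p under 0.05 (limma with the mouse as a block, Benjamini-Hochberg over all probe sets), against 1.4% of all genes higher and 0.222% lower. Counted by probe set, 3 of 13 were higher and 2 of 13 lower, against 0.957% and 0.168% of all probe sets. The 3 CD11c+ arrays lay wholly above the 3 CD11c- arrays for 3 of the 13 probe sets and wholly below them for 5, which held for 6.4% and 12.5% of all probe sets. The median log2 difference of the 7 genes was 0.02, and that of all genes was -0.09. The background level was a log2 signal of 5.98, under which lay the means of 95% of 37 genes known from unrelated tissues, and a group mean at or under it was taken as not above background.

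**Figure D1:**
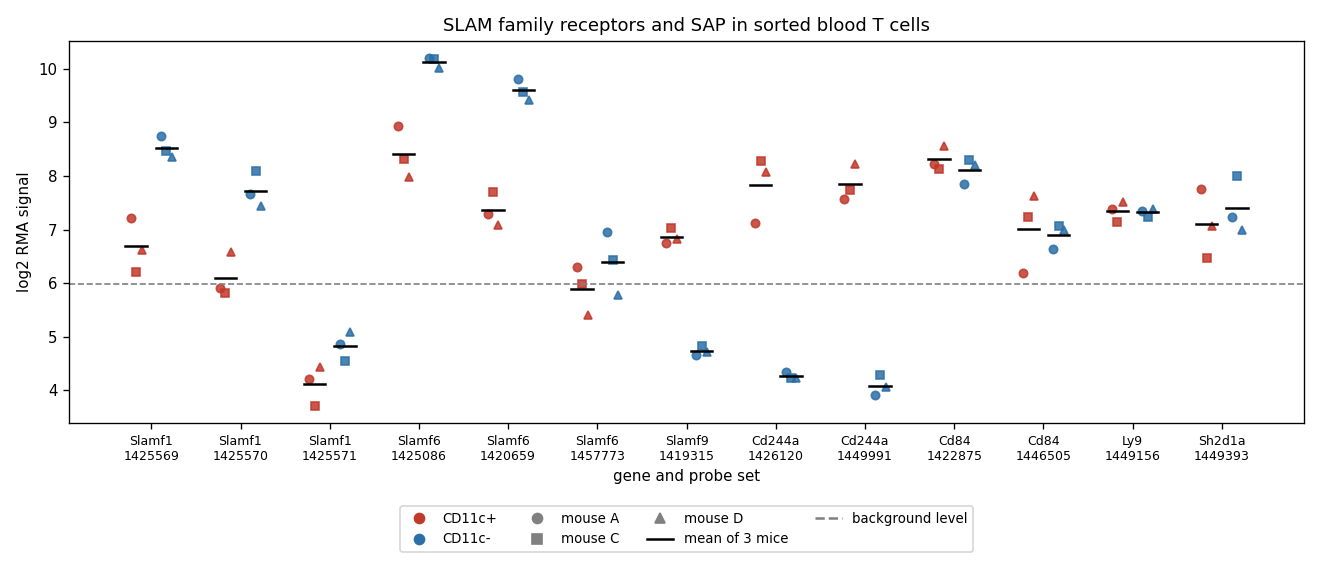
Log2 RMA signal (vertical axis) of the 13 probe sets of the SLAM family genes and Sh2d1a (horizontal axis, with probe set number) on each of the 6 arrays. Red is CD11c+, blue is CD11c-, marker shapes are mice, short bars are means of 3 mice and the dashed line is the background level of 5.98. Both Cd244a probe sets and Slamf9 are above the line on CD11c+ arrays and under it on CD11c- arrays, while the brighter probe sets of Slamf1 and Slamf6 lie lower in CD11c+ cells.

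Cd244a encodes 2B4, a receptor of NK cells, cytotoxic T cells and several myeloid cells. Its brighter probe set (1426120_PM_a_at) had log2 values of 7.13, 8.28 and 8.08 in CD11c+ cells of mice A, C and D, against 4.33, 4.22 and 4.22 in their CD11c- cells. The fractions did not overlap, and the CD11c+ value of mouse A was the lowest of the 3. Averages were 7.83 ± 0.62 on CD11c+ arrays and 4.26 ± 0.06 on CD11c- arrays (SD, n = 3), which is a log2 difference of 3.57 (standard error 0.29, adjusted p = 0.0242). The second probe set (1449991_PM_at) had 7.57, 7.73 and 8.22 in CD11c+ and 3.92, 4.28 and 4.07 in CD11c- cells. It gave a log2 difference of 3.75 (standard error 0.19, adjusted p = 0.00805), so both probe sets of Cd244a showed the same direction in 3 of 3 mice. Since neither CD11c- mean was above background, the fold is a lower bound, and set against the background level the signal of Cd244a was at least 3.61-fold and 3.64-fold higher in CD11c+ cells at these 2 probe sets. In sorted bulk samples fewer cells of a kind and less RNA per cell cannot be told apart. With mouse A left out the adjusted p was 0.0879 and 0.125 at the 2 probe sets, and with mouse C left out it was 0.0718 at the first and 0.0271 at the second. Leaving out mouse A ended every call, since 0 of all 45141 probe sets then passed in limma (2796 higher and 2767 lower at an unadjusted p under 0.05).

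Slamf9 encodes a receptor with a short tail that lacks the SAP-binding motif and is known from plasmacytoid dendritic cells and macrophages. Its single probe set (1419315_PM_at) had 6.75, 7.02 and 6.83 in CD11c+ cells of mice A, C and D, against 4.66, 4.82 and 4.71 in CD11c- cells. The differences within the 3 mice, 2.09, 2.20 and 2.11, lay closer together than those of any other member probe set. The log2 difference was 2.14 (standard error 0.13, adjusted p = 0.0114). The CD11c- mean of Slamf9 was not above background, and set against the background level the CD11c+ signal was at least 1.85-fold higher. The adjusted p of Slamf9 was 0.122 with mouse A left out and 0.0721 with mouse C left out, at log2 differences of 2.16 and 2.10. Markers of other blood cells were also higher on the CD11c+ arrays, for example the summed linear signal of 13 monocyte and macrophage markers (4480 to 6079 in CD11c+ and 613 to 953.2 in CD11c- arrays), and their part in the levels of Cd244a and Slamf9 was not tested.

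Slamf1 encodes SLAM itself (CD150), a self-binding receptor of T cells, B cells and macrophages that signals through SAP. Its brightest probe set (1425569_PM_a_at) had 7.22, 6.22 and 6.62 in CD11c+ cells of mice A, C and D, against 8.74, 8.46 and 8.36 in CD11c- cells. The highest CD11c+ value lay below the lowest CD11c- value, and both means, 6.69 ± 0.51 and 8.52 ± 0.20 (SD, n = 3 mice), were above background. Slamf1 was thus lower in CD11c+ cells by a log2 difference of -1.83 (standard error 0.19, adjusted p = 0.0411). A second probe set (1425570_PM_at) had a log2 difference of -1.63 (adjusted p = 0.125) and another (1425571_PM_at), which was not above background in either fraction, -0.71 (adjusted p = 0.118). Neither passed, although both were lower in CD11c+ cells in 3 of 3 mice with no overlap of the fractions. The call for Slamf1 ended whichever mouse was left out, with adjusted p values of 0.18 (A), 0.12 (C) and 0.0815 (D) at log2 differences of -1.99, -1.63 and -1.88. It also ended after cyclic loess (-1.75, adjusted p = 0.0657) and after centring each array on its median (-1.81, adjusted p = 0.0666).

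Slamf6 encodes Ly108, another self-binding receptor of T, B and NK cells that recruits SAP. Its brightest probe set (1425086_PM_a_at) had 8.92, 8.31 and 7.98 in CD11c+ cells of mice A, C and D, against 10.20, 10.19 and 10.01 in CD11c- cells. The fractions were apart, with a log2 difference of -1.73, yet this probe set missed the threshold (adjusted p = 0.0503, and 0.0266 without the mouse as a block). The probe set 1420659_PM_at, annotated to a RefSeq mRNA, had 7.29, 7.70 and 7.09 in CD11c+ and 9.81, 9.57 and 9.42 in CD11c- cells. There Slamf6 was lower in CD11c+ cells by a log2 difference of -2.24 (standard error 0.18, adjusted p = 0.0228). The remaining probe set (1457773_PM_at) had a log2 difference of -0.49 (95% interval -0.85 to -0.12, adjusted p = 0.243), and its fractions overlapped. Its CD11c+ mean (5.90) was not above background, which limits the difference it can show. All 3 probe sets of Slamf6 were lower in CD11c+ cells in 3 of 3 mice. The call at 1420659_PM_at ended whichever mouse was left out, with adjusted p values of 0.162 (A), 0.0582 (C) and 0.0535 (D) at log2 differences of -2.10, -2.42 and -2.20. The summed linear signal of 12 T cell markers was lower too, from 6858 to 8429 in CD11c+ and from 12810 to 13790 in CD11c- arrays, and its part in the levels of Slamf1 and Slamf6 was not tested. Centring the arrays on the CD3 chains, whose mean log2 difference was -0.74, moved Slamf1 to -1.10 (adjusted p = 0.00879) and Slamf6 to -0.99 (adjusted p = 0.0131) at their brightest probe sets. It turned Slamf1 at 1425571_PM_at to 0.029 and Slamf6 at 1457773_PM_at to 0.25, and gave 22412 probe sets higher and 232 lower. With so many passing, an adjusted p under 0.05 is easier to reach. The unadjusted limma p was larger than before centring, at 0.0008275 against 0.0003845 for Slamf1 and 0.001523 against 0.000582 for Slamf6.

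**Figure D2:**
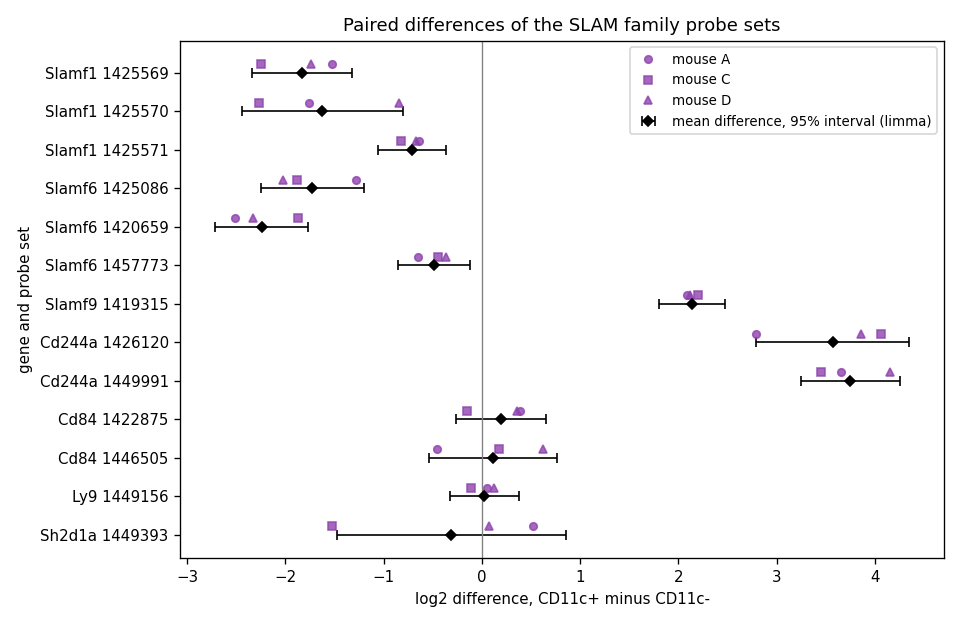
Log2 difference between CD11c+ and CD11c- cells (horizontal axis) of each probe set (vertical axis). Black diamonds and bars are the limma mean difference and its 95% interval, and purple symbols are the differences within mice A, C and D. The intervals of Cd84, Ly9 and Sh2d1a include 0, and Sh2d1a has the widest spread between mice.

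Cd84 and Ly9 encode self-binding SLAM receptors of T and B cells, CD84 being carried also by platelets and mast cells. The brighter Cd84 probe set (1422875_PM_at) had 8.23, 8.13 and 8.56 in CD11c+ cells of mice A, C and D, against 7.84, 8.29 and 8.20 in CD11c- cells, and the fractions overlapped. Its log2 difference was 0.20 (95% interval -0.26 to 0.65, adjusted p = 0.701). The other Cd84 probe set (1446505_PM_at) had a log2 difference of 0.12 (95% interval -0.54 to 0.77, adjusted p = 0.868). Ly9 (1449156_PM_at) had 7.39, 7.13 and 7.51 in CD11c+ and 7.34, 7.24 and 7.39 in CD11c- cells, a log2 difference of 0.02 (95% interval -0.33 to 0.37, adjusted p = 0.958). Both genes were above background in each fraction. The intervals of Cd84 and Ly9 did not reach those of Slamf1 (-2.34 to -1.33) or Cd244a (2.79 to 4.35) at their brightest probe sets.

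Sh2d1a, the gene of SAP, was above background in both fractions and differed in direction between mice. It had 7.75, 6.47 and 7.06 in CD11c+ cells of mice A, C and D, against 7.23, 8.00 and 6.99 in CD11c- cells. The differences were 0.52 in mouse A, -1.52 in mouse C and 0.07 in mouse D, with a mean of -0.31 (95% interval -1.47 to 0.85, adjusted p = 0.805). The mean turned to 0.30 without mouse C and to 0.43 after CD3 centring. This was the widest interval among the 13 probe sets, and no direction of Sh2d1a is given.

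Of the 9 listed genes, 8 lie on chromosome 1 and Sh2d1a lies on the X chromosome. In the order of the RefSeq gene table, 28 protein-coding genes run from Cd244a to Slamf8, a SLAM relative of myeloid cells that is not among the 9. The block starts with Cd244a, Ly9, Slamf7, Cd48 and, after 1 other gene, Slamf1, Cd84 and Slamf6, so that genes with opposite differences stood beside genes with a difference near 0. Slamf9 lies further along, apart from this run. Of the 14 other measured genes in the stretch, leaving out Slamf8, 0 passed in limma, against 1.4% of all genes higher and 0.222% lower. At these shares a count of 0 among 14 genes tells little. Their log2 differences ran from -0.85 to 0.51 with a median of -0.10. Vangl2, Nhlh1, Casq1, Kcnj9, Kcnj10, Pigm, Igsf9, Cfap45 and Vsig8 were above background in neither fraction, which limits the differences they can show.

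**Figure D3:**
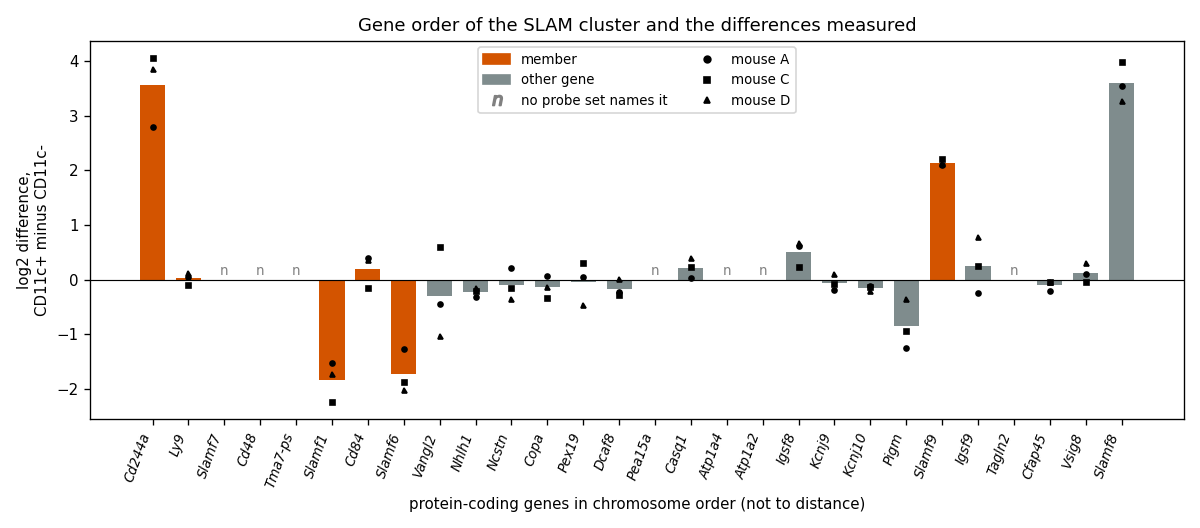
Log2 difference between CD11c+ and CD11c- cells (vertical axis) of the 28 protein-coding genes from Cd244a to Slamf8 in chromosome order (horizontal axis, not to distance), with 1 bar per measured gene and black symbols for mice A, C and D. Orange bars are members, grey bars are other genes, and n marks genes with no probe set that names them. Cd244a, Slamf9 and Slamf8 stand above 0 and Slamf1 and Slamf6 below it, while the 14 other measured genes run from -0.85 to 0.51. Many of these other genes were above background in neither fraction.

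The promoters of the 4 members with the largest differences are shown so that the regulatory sequence beside each can be read. Each is the 250 bases before the gene's start in RefSeq, build GRCm38.p6, written from its far end to the start. Capitals mark matches on either strand to 6 motifs, GAGGAA (PU.1-type ETS), TGTGGT (RUNX), GATAA (bound by GATA factors), CTTTGA (TCF/LEF), GGTGTG (T-box) and CAGCTG (E-box, its own reverse complement). No matches overlap.
Cd244a promoter, chr1:171558943-171559192, plus strand: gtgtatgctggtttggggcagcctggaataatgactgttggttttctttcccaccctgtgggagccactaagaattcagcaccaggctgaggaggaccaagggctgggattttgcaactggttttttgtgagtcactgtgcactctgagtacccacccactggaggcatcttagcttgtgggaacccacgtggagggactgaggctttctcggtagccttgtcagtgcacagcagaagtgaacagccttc
Slamf9 promoter, chr1:172475110-172475359, plus strand: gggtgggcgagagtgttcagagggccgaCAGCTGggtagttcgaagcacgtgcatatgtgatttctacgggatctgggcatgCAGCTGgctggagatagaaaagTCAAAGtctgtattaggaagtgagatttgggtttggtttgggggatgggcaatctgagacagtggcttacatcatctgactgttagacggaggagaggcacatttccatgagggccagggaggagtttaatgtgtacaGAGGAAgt
Slamf1 promoter, chr1:171766882-171767131, plus strand: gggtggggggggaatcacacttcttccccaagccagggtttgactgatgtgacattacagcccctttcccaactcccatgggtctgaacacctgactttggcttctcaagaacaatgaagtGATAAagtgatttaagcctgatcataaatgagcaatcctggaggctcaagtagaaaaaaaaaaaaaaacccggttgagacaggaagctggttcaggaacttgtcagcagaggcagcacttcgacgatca
Slamf6 promoter, chr1:171917212-171917461, plus strand: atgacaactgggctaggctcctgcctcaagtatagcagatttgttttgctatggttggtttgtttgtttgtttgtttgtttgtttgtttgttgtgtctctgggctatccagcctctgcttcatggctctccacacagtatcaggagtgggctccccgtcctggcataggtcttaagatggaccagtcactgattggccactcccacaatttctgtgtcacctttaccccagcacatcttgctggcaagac
The Slamf9 window held 2 CAGCTG matches, 1 CTTTGA match on the minus strand and 1 GAGGAA match that begins 8 bases before the start. The Slamf1 window held 1 GATAA match, and the windows of Cd244a and Slamf6 held none of the 6. Among the 32851 promoter windows of the same length, 23.3% held GAGGAA, 14.0% TGTGGT, 22.6% GATAA, 13.8% CTTTGA, 16.3% GGTGTG and 13% CAGCTG. RefSeq windows were found for 7 of the 9 genes.

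Among the other genes of the SLAM pathway, 22 of 28 were measured, of which 2 were higher, 0 lower and 20 did not pass, against 1.4% of all genes higher and 0.222% lower. At an unadjusted p under 0.05 in limma 5 were higher and 5 lower, against 7.38% and 7.44% of all genes. Their median log2 difference was -0.11, against -0.09 for all genes. Slamf8 had 7.25, 7.30 and 6.40 in CD11c+ cells of mice A, C and D, against 3.71, 3.31 and 3.12 in CD11c- cells, a log2 difference of 3.60 (adjusted p = 0.00864). Plcg2, a phospholipase C of B cells, NK cells and myeloid cells, had 9.11, 9.22 and 8.93 in CD11c+ and 4.85, 4.72 and 5.15 in CD11c- cells, a log2 difference of 4.18 (adjusted p = 0.00654). Neither CD11c- mean was above background, and set against the background level the CD11c+ signal was at least 2.01-fold higher for Slamf8 and at least 8.64-fold higher for Plcg2. With mouse A left out the adjusted p was 0.133 for Slamf8 and 0.119 for Plcg2.

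The adaptors, kinases and phosphatases of the list had smaller differences, and none of those named next passed. Sh2d1b1, which encodes the SAP relative EAT-2, had a log2 difference of 0.90 (adjusted p = 0.148) with neither mean above background. Ptpn6, the phosphatase SHP-1, had 0.90 (adjusted p = 0.0955), and the 3 CD11c+ values (9.51, 9.72 and 9.57) lay above the 3 CD11c- values (8.83, 8.72 and 8.54). Bcl10, an NF-κB adaptor, had 0.42 (adjusted p = 0.266). Fyn, the kinase that SAP recruits, had 9.71, 10.06 and 9.87 in CD11c+ and 10.01, 10.19 and 9.87 in CD11c- cells, a log2 difference of -0.14 (adjusted p = 0.733). At the lower end of the list, Malt1 had -1.13 (adjusted p = 0.0915), Prkcq, the kinase PKC-theta, -0.75 (adjusted p = 0.126), the adaptor Lat -0.53 (adjusted p = 0.258) and the PI3 kinase subunit Pik3r1 -0.52 (adjusted p = 0.229). Cd2, a relative of the family that binds CD48 in mice, had -0.49 (adjusted p = 0.325). Each of Malt1, Prkcq, Lat, Pik3r1 and Cd2 was lower in CD11c+ cells in 3 of 3 mice.

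Of 14 genes linked to T cell programmes that need SAP, all measured, 0 were higher, 1 was lower and 13 did not pass, against 1.4% and 0.222% of all genes, with a median log2 difference of -0.11. At an unadjusted p under 0.05 in limma 4 were higher and 4 lower, against 7.38% and 7.44% of all genes. Gata3, a transcription factor of type 2 helper T cells, had 6.03, 5.09 and 5.47 in CD11c+ cells, against 7.37, 7.07 and 7.55 in CD11c- cells. Its log2 difference was -1.80 (adjusted p = 0.0486), and as its CD11c+ mean was not above background, it was at least 2.56-fold lower in CD11c+ cells. That call ended whichever mouse was left out, with adjusted p values of 0.132 (A), 0.16 (C) and 0.0938 (D), and after cyclic loess (0.0781) or median centring (0.0833). Zbtb16, which encodes the iNKT factor PLZF, had 5.35, 6.32 and 4.72 in CD11c+ and 6.58, 7.69 and 6.80 in CD11c- cells, a log2 difference of -1.56 (adjusted p = 0.0732), with the CD11c+ mean not above background. The costimulatory receptor Icos had -1.56 (adjusted p = 0.0736), and Maf, a factor of follicular helper cells, -1.78 (adjusted p = 0.0626) with neither mean above background. At the upper end, Bcl6, the master factor of follicular helper cells, had 2.19 (adjusted p = 0.106), Egr2 1.59 (adjusted p = 0.0572), Il4 1.45 (adjusted p = 0.0882) and Cxcr5 0.51 (adjusted p = 0.214). Neither mean was above background for Egr2 and Cxcr5, and the CD11c- mean was not for Bcl6 and Il4. Of the 14 genes, 8 were above background in neither fraction. The part of other blood cells in the levels of these 14 genes was not tested.

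**Figure D4:**
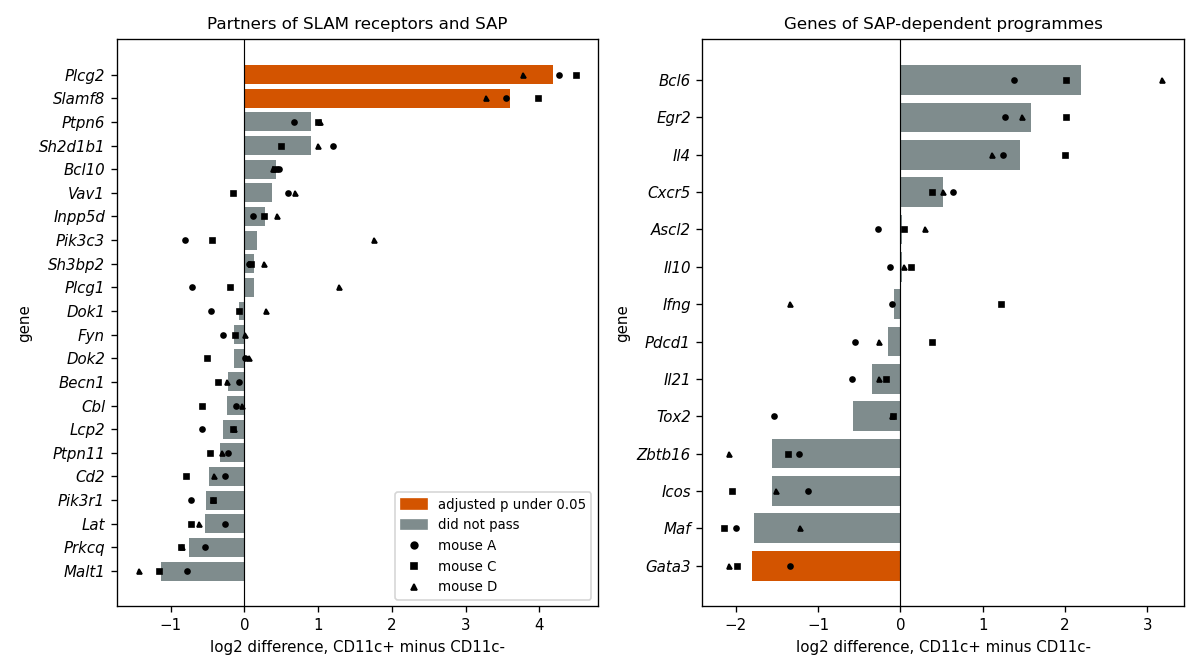
Log2 difference between CD11c+ and CD11c- cells (horizontal axis) of 22 partners of SLAM receptors (left) and 14 genes of SAP-dependent programmes (right), 1 gene per row. Bars are mean differences, orange where the adjusted p was under 0.05, and symbols are mice A, C and D. Plcg2 and Slamf8 lead the left panel at measured differences of 4.18 and 3.60, with CD11c- means not above background, and Gata3 at -1.80, with a CD11c+ mean not above background, is the single orange bar of the right panel.

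The genes closest to 2 members in their values over the 6 arrays were found by the root mean square distance after centring, over 6406 genes with a mean above background in either fraction. For Cd244a these were Adgrg1 (distance 0.08, log2 difference 3.68), Marcks (0.12, 3.56) and Fes (0.25, 3.56). For Slamf1 they were Smco4 (distance 0.19, log2 difference -1.62), Cd6, a T cell surface receptor (0.19, -1.85), and Gata3 (0.19, -1.80). These are the same arrays as in the comparison, so the likeness is a description of 6 values per gene.

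The labels were checked against marker genes. Itgax, which encodes CD11c, averaged 8.97 in CD11c+ and 4.60 in CD11c- cells (adjusted p = 0.0387), with the CD11c- mean not above background. That call ended whichever mouse was left out (adjusted p from 0.067 to 0.092), after cyclic loess (0.066) and after median centring (0.0542). Cd44, high by the sort in both, averaged 9.18 in CD11c+ and 9.19 in CD11c- cells. Of 12 measured T cell markers, 11 were above background in CD11c+ and 12 in CD11c- cells. Cd8b1 averaged 10.03 in CD11c+ and 8.60 in CD11c- cells (adjusted p = 0.0333). Cd8a, at 10.49 in CD11c+ and 8.95 in CD11c- cells at its brightest probe set, did not pass (adjusted p = 0.151). Nor did Cd4, which averaged 7.80 in CD11c+ and 10.30 in CD11c- cells (adjusted p = 0.0973). Other probe sets of Cd8a are not given here, and the paper lists Cd8a among its up-regulated genes. With the arrays centred on the CD3 chains, Cd84 at 0.93 (adjusted p = 0.0186) and Ly9 at 0.76 (adjusted p = 0.0343) also passed as higher. So did 22412 of all 45141 probe sets, as this centring raises every difference by the same amount.

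The lists of other blood cells, whose part in the levels of Slamf8 and Plcg2 was not tested either, differed in how far they moved. Of 10 basophil and mast cell markers, 9 were above background in CD11c+ and 1 in CD11c- cells, with summed linear signals of 3455 to 5830 in CD11c+ and 188.7 to 210.1 in CD11c- arrays and Hdc (mean 9.86 in CD11c+ and 5.04 in CD11c- cells) the brightest in CD11c+ cells. Of 13 monocyte and macrophage markers, 10 were above background in CD11c+ and 3 in CD11c- cells, with Lyz2 (mean 10.55 in CD11c+ and 3.60 in CD11c- cells) the brightest in CD11c+ cells and Cd14, Fcgr1 and Ms4a7 not above it in either. Of 10 conventional dendritic cell markers, 6 were above background in CD11c+ and 2 in CD11c- cells (1912 to 3209 in CD11c+ and 823.8 to 852 in CD11c- arrays), with Cd209a (mean 10.03 in CD11c+ and 4.69 in CD11c- cells) the brightest in CD11c+ cells and Flt3, Zbtb46 and Xcr1 not above it in either. Of 11 NK cell markers, 8 were above background in each fraction (6721 to 6884 in CD11c+ and 3132 to 3417 in CD11c- arrays), with Nkg7 (mean 11.19 in CD11c+ and 10.34 in CD11c- cells) the brightest in CD11c+ cells and Ncr1 not above it in either. The 8 were not the same in the 2 fractions, as Eomes (7.31 in CD11c+ and 5.25 in CD11c- cells, adjusted p = 0.0225) was above background in CD11c+ cells alone and Klrb1c, which encodes NK1.1 (5.52 in CD11c+ and 6.82 in CD11c- cells, adjusted p = 0.042), in CD11c- cells alone. These 4 lists, and the plasmacytoid dendritic cell, neutrophil and platelet lists, had higher sums on every CD11c+ array than on any CD11c- array. Of 8 plasmacytoid dendritic cell markers, 2 were above background in each (527.4 to 661.5 in CD11c+ and 336.3 to 416.1 in CD11c- arrays), but not the same 2. In CD11c+ cells they were Irf8 (7.75 in CD11c+ and 5.72 in CD11c- cells, limma adjusted p = 0.0313) and Ly6d (6.21 and 5.11, adjusted p = 0.248). In CD11c- cells they were Klk1 (5.96 in CD11c+ and 6.16 in CD11c- cells) and Pacsin1 (5.52 and 6.36), and neither passed. Tcf4 passed as higher (adjusted p = 0.03), and Tcf4 and Spib were not above background in either. Of 11 B cell markers, 6 were above background in CD11c+ and 3 in CD11c- cells, with sums that overlapped (714 to 1826 in CD11c+ and 630.2 to 1455 in CD11c- arrays) and Ms4a1 and Ebf1 not above it in either. Pax5 (6.45 in CD11c+ and 4.42 in CD11c- cells, adjusted p = 0.0261) and Fcer2a (5.86 in CD11c+ and 3.61 in CD11c- cells, adjusted p = 0.0493, neither mean above background) passed as higher in CD11c+ cells, 7 of the 11 were higher in all 3 mice, and Blk had 7.64 in CD11c+ and 8.92 in CD11c- cells (adjusted p = 0.19). Of 11 neutrophil markers, 2 were above background in CD11c+ and 0 in CD11c- cells (390.2 to 427.4 in CD11c+ and 144.1 to 183.8 in CD11c- arrays), with S100a8 and S100a9 not above it in either. The 2 were Csf3r (6.46 in CD11c+ and 4.10 in CD11c- cells, limma adjusted p = 0.03) and Cxcr2 (7.45 and 3.89, adjusted p = 0.0595), and Cxcr2 did not pass. Of 7 platelet markers, 2 were above background in each (594.2 to 813.8 in CD11c+ and 472.6 to 554.2 in CD11c- arrays), namely Itga2b and Itgb3. Itga2b, which is also in the basophil and mast cell list, had 8.38 in CD11c+ and 6.08 in CD11c- cells (limma adjusted p = 0.049). Itgb3 went the other way, at 7.84 in CD11c+ and 8.25 in CD11c- cells (adjusted p = 0.405). Pf4, Ppbp, Gp9, Gp5 and Treml1 were not above background in either. Of 4 red cell markers, 1 was above background in each, with sums that overlapped.

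**Figure D5:**
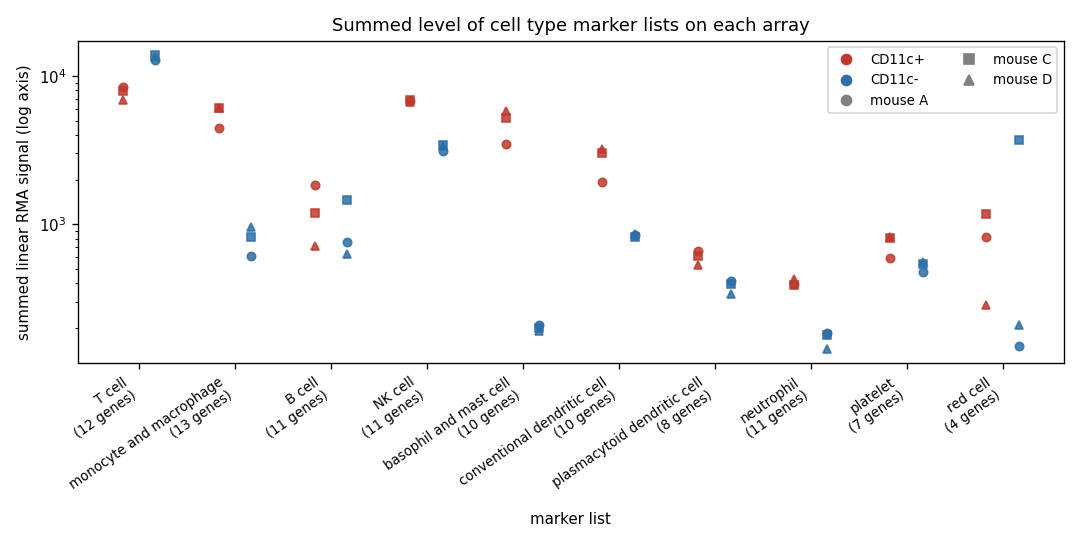
Summed linear RMA signal (vertical log axis) of each list of cell type markers (horizontal axis, with the number of measured genes) on the 6 arrays. Red is CD11c+, blue is CD11c-, and marker shapes are mice. The basophil and mast cell sums run from 3455 to 5830 in CD11c+ arrays and from 188.7 to 210.1 in CD11c- arrays, and the T cell sums are lower in CD11c+ arrays.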

How the data were processed

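The 6 arrays (Affymetrix mouse expression arrays) were hybridised with amplified RNA of 300 sorted cells each. The authors read the scans with the GeneAtlas software and ran RMA, so the deposited values are normalized log2 signals per probe set. The submitters' processing notes also name RMA and limma, whose versions were not given in the sources used here. Since RMA equalizes the distributions of the arrays, a change in total RNA cannot be seen. Array medians ran from 4.4 to 4.54.

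All 45141 probe sets were fitted with limma 3.58.1 in R 4.3.3 with the mouse as a fixed block, as the labels give each pair of samples to 1 mouse, two-sided, with Benjamini-Hochberg adjustment over all probe sets, a threshold of 0.05 and no filter. Deviations from the group means correlated at 0.122, 0.0758 and 0.109 within mice and from -0.086 to -0.0217 between mice. In the platform annotation 28898 probe sets carry 1 gene symbol, 551 carry more and 15692 carry none. Each gene was represented by the probe set of highest mean signal. Motifs were searched in RefSeq promoter windows. Nearest patterns could not be sought for Slamf7, which no probe set names.

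Tested on simulated data for this comparison (45141 probe sets, 50 changed per size), the fit recovered 0% of log2 changes of 1, 30% at size 2, 64% at size 3 and 70% at size 4, with 1 false call. The named genes are the members, the called genes and ends of 2 pathway lists, sort genes, the brightest markers and nearest patterns. Fyn, Bcl10, Cd2, Eomes, Klrb1c, Pax5, Fcer2a, Blk, Pacsin1 and the defining markers not above background were added after their values were seen. The members and lists were chosen with earlier results of these data known. Motifs were chosen after the values were seen. Alternatives changed the block, the threshold, the variance model, the normalization, the choice of probe set and the filter, or left out each mouse in turn.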

Additional observations from a re-analysis of the deposited data

How the results depend on the processing

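Replicates 1, 2 and 3 are mice A, C and D. Cd244a and Slamf9 kept their direction under every alternative run and lost their calls only without mouse A or mouse C. Of the 7 members, 2 were called higher in the fit reported, 4 with arrays centred on the CD3 chains, and 0 to 2 when a mouse was left out. Called lower were 1 in the fit reported, 0 when any mouse was left out, with cyclic loess or with median centring, and 2 with a threshold of 0.1, with CD3 centring, with averaged probe sets, with the filter on dim probe sets, with a trended variance, without the replicate block or with it as a random effect, since Slamf6 then joined Slamf1. At an unadjusted p under 0.05 limma gave 2 higher and 2 lower without each mouse. For the SLAM partners 2 calls became 4 with a threshold of 0.1, 8 with CD3 centring, 4 without the replicate block, 4 with a random block and 0 to 2 without a mouse (7 to 8 at an unadjusted p under 0.05). For the SAP-dependent genes 1 call became 6 with a threshold of 0.1, 10 with CD3 centring, 6 with the mean of probe sets, 4 without the replicate block, 5 with a random block, 4 with the filter, 4 with a trended variance, 0 with cyclic loess or median centring (8 at an unadjusted p under 0.05) and 0 to 1 without a mouse. Over all probe sets, 432 higher and 76 lower became 845 and 380 with a threshold of 0.1, 22412 and 232 with CD3 centring, 684 and 211 without the replicate block, 684 and 207 with a trended variance, 812 and 316 with a random block, 607 and 140 with the filter, 343 and 41 with cyclic loess, 0 to 348 and 0 to 44 without a mouse. CD3 centring turned Sh2d1a to 0.43, Slamf1 at 1425571_PM_at to 0.029 and Slamf6 at 1457773_PM_at to 0.25. Leaving out a mouse gave -0.73 to 0.30 for Sh2d1a, -0.029 to 0.086 for Ly9 and -0.14 to 0.40 for Cd84 at 1446505_PM_at. With the 90th percentile the background level was 5.82. The cause of these changes was not tested. Signals near the background level limit the folds of Cd244a and Slamf9, and changes of 1 on the log2 scale were not recovered on simulated data.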

Other observations

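Among the CD11c+ arrays, that of mouse A had the lowest Cd244a, at 7.13 and 7.57 on its 2 probe sets, and the highest values at the brightest probe sets of Slamf1 (7.22) and Slamf6 (8.92). At the other Slamf1 probe sets mouse D was highest (6.59 against 5.91 in mouse A at 1425570_PM_at, and 4.43 against 4.22 at 1425571_PM_at). At the Slamf6 probe set 1420659_PM_at its value, 7.29, lay between those of mice C and D (7.70 and 7.09). The same array had the lowest summed signal of the basophil and mast cell markers (3455, against 5241 and 5830 in mice C and D) and of the monocyte and macrophage markers (4480, against 6079 and 6068), and the highest of the T cell markers (8429, against 7860 and 6858), of the B cell markers (1826, against 1198 and 714) and of the plasmacytoid dendritic cell markers (661.5, against 609.9 and 527.4). The CD11c+ array of mouse A was also lowest for the conventional dendritic cell markers (1912, against 3036 and 3209) and the platelet markers (594.2, against 810.1 and 813.8). It lay between mice C and D for the NK cell markers (6821, against 6884 and 6721). So it did for the neutrophil markers (393.3, against 390.2 and 427.4) and the red cell markers (816.3, against 1179 and 284.8). With 3 arrays per fraction this is a description, and the part of these markers in the values was not tested.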
